A study of Mus musculus with 57 samples.

Results

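Levels of 6 small structural RNAs were followed in mouse oocytes and preimplantation embryos: Rmrp, the RNA of RNase MRP; Rpph1, the RNA of RNase P; Rn7sk, the 7SK RNA; Rny1 and Rny3, the Y RNAs; and Terc, the telomerase RNA. The members were every row of the expression table whose Ensembl identifier carries 1 of these 6 symbols, which gave 7 rows of 59119 in all and of 54446 with an Ensembl identifier, because Rmrp has 2 rows. No measured value entered this rule, but the 6 symbols were chosen with earlier results of these data known.

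Rmrp, Rpph1, Rn7sk and the Y RNAs are transcribed by RNA polymerase III (Pol III), while Terc is a product of RNA polymerase II. RNase MRP cuts the precursor of ribosomal RNA, and RNase P removes the leader of precursor tRNAs; both RNAs are catalytic cores that work with a largely shared set of proteins. 7SK RNA holds the elongation kinase P-TEFb inactive, Y RNAs bind the Ro60 protein and the La protein, and Terc carries the template from which telomerase copies telomere repeats. The embryo starts its own transcription between the 1-cell and the 2-cell stage, so the window sampled here runs from RNA stored in the oocyte to RNA made by the embryo.

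Total RNA was sequenced with paired reads of 150 bases from 57 samples in 18 groups, each sample made from 150 to 200 embryos per the labels, and the table holds 43 sample columns. One series ran through development in wild-type C57BL/6 embryos fathered by BDF1 males, with 2 columns for each of 8 stages: MII oocyte, zygote, the 2-cell stage sampled early (E2-cell) and late (L2-cell), 4-cell, 8-cell, morula and blastocyst. Another followed wild-type BDF1 embryos at 14, 17 and 20 hours after fertilization, with 2 columns per time. For the knockdown of LncR-3363, a long noncoding RNA, BDF1 embryos received an antisense oligonucleotide at 20 uM; KD-1cell has 4 columns, KD-2cell 1, and Ctrl, which carries no stage in the labels, 4. For the knockout (ko) of the repeat MT2Mm, BDF1 embryos received Cas9 mRNA (100 ng/uL) together with guide RNA (150 ng/uL), and 3 ko and 3 ctrl columns each were sampled at the end of the 1-cell stage (Late1c) and the start of the 2-cell stage (Early2c); the labels of these groups give an age of 6 to 8 weeks. Injections were made into MII oocytes with 5 to 10 pL each; controls are labelled wild type, with no word on injection. An injected group is a pool of embryos, and the share of RNA or repeat copies hit in each is unknown. LncR-3363 and MT2Mm have no row under these names, so the targets were not checked here. Nothing in the labels says that replicates came from separate matings or cultures, so p-values measure the spread between these columns, which may be technical. Groups of 2 to 4 columns can fail to overlap with no true difference. Statements on overlap below are descriptions, given without the share of all rows.

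The unit below is FPKM as the authors deposited it: sequenced fragments divided by transcript length and by library size. FPKM is a share of a library, so more of an RNA per embryo and less of all other RNA cannot be told apart, nor can fewer cells and less RNA per cell. Read depth is unknown. The FPKM of a column summed to between 311543 and 720832, of which small RNAs made up 18% to 73.4% and the 7 rows 0.719% to 5.86%. L2-cell replicate 2 stood apart with the highest sum, 720832, and with 73.4% of it in small RNAs. The effect of leaving it out is therefore given beside most member results at the L2-cell and for some gene lists there. The counts of RNase P and MRP proteins, of 7SK and P-TEFb genes and of shelterin genes include this column. Summed levels of 7 oocyte markers were 3160 to 3350 FPKM in MII oocytes and 6.10 to 7.14 in blastocysts, those of 6 markers of the 2-cell stage were 211 to 226 in the E2-cell and 229 to 240 in Early2c ctrl, and those of 8 blastocyst markers reached 1540 to 1640 in the blastocyst. Markers of cumulus and granulosa cells, 11 genes, summed to at most 8.97 FPKM in any column.

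The transcripts, from the GENCODE M21 annotation of build GRCm38, are shown because their sequences decide what the rows can tell apart. Rmrp lies on the minus strand of chromosome 4 at chr4:43492788-43493058 as a ribozyme model of 271 bases, and a long intergenic noncoding RNA (lincRNA) model at chr4:43492783-43493063 holds all of it with 5 more bases at either end. Reads of these rows cannot be told apart outside those bases, so the split between them is uncertain. Rpph1 lies at chr14:50807449-50807767 on the minus strand with 319 bases, of which the first 300 are shown. Capitals mark the runs of at least 9 bases that Rmrp and Rpph1 have in common, which come in the same order in both; of 2231 other transcripts within 10% of the length of Rmrp 28.1% share such a run with Rpph1, and of 4132 within 10% of the length of Rpph1 21.6% share one with Rmrp.
Rmrp: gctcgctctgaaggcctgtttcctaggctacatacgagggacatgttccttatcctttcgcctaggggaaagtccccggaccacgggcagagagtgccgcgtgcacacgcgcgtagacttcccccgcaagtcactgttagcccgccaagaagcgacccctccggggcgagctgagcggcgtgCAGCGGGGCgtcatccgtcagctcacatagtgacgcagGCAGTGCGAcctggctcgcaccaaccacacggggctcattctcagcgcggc
Rpph1: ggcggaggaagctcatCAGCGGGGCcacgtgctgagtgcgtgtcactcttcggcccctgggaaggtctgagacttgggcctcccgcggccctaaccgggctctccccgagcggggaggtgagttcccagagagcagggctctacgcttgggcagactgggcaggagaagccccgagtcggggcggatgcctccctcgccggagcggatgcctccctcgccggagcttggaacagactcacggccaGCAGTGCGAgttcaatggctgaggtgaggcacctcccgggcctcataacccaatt

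The Y RNA genes are neighbours on chromosome 6, Rny3 at chr6:47781624-47781725 on the plus strand and Rny1 at chr6:47788069-47788180 on the minus strand, with 6343 bases between them. Their transcripts, of 102 and 112 bases, are shorter than the 150-base reads, and how the library preparation kept such short RNAs was not tested. Capitals mark runs of at least 8 shared bases, which lie at the start and near the end, where the known stem of Y RNAs is formed, and between them. Of 2175 transcripts within 10% of the length of Rny1 7.59% share such a run with Rny3, and of 2007 within 10% of the length of Rny3 9.32% share one with Rny1. Both end in a run of 4 T, the usual stop signal of Pol III.
Rny1: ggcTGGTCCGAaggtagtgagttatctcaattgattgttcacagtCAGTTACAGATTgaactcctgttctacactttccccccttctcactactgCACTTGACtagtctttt
Rny3: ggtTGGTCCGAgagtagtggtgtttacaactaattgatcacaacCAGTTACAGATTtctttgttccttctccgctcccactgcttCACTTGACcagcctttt

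Rn7sk, on the minus strand at chr9:78175303-78175633, has 331 bases; its start is shown with each GATC in capitals, the word known from the HEXIM-binding stem of 7SK. The shown part holds 3, and of 5185 transcripts within 10% of its length 8.95% hold as many. Terc, on the minus strand at chr3:96414437-96414859, has 423 bases; its first 120 are shown with the template letters CTAACC in capitals, which 4.74% of 9294 transcripts within 10% of its length also hold.
Rn7sk: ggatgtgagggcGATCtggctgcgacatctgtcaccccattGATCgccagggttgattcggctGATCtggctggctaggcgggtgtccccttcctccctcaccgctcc
Terc: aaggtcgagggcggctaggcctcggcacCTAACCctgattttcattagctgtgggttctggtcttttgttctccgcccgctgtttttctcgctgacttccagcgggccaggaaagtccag

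Rmrp had the widest range of the 6 RNAs over the stages, 86.3-fold between stage means. The ribozyme row stood at 68.8 and 28.7 FPKM in MII oocytes, 66.8 and 30.7 in zygotes, 99.3 and 135 in the E2-cell, and 899 and 1744 in the L2-cell. It stood at 635 and 477 in 4-cell embryos, 1878 and 2967 in 8-cell embryos, 1963 and 2169 in morulae, and 4249 and 4160 in blastocysts. The MII and zygote columns overlapped, all E2-cell columns lay above them, all L2-cell columns lay far above the E2-cell, and both blastocyst columns were above every other column of the table. In a limma fit over the 8 stages on log2(FPKM + 0.5), with Benjamini-Hochberg adjustment over the 19692 rows tested, Rmrp rose by 1.34 (SE 0.47, adjusted p = 0.039) from zygote to E2-cell and by 3.43 (SE 0.47, adjusted p = 5.8e-05) from E2-cell to L2-cell, 11.3-fold between means. It rose again by 2.1 (adjusted p = 0.0058) from the 4-cell to the 8-cell stage, a call lost without 8-cell replicate 2. The L2-cell to 4-cell difference of -1.19 did not pass (adjusted p = 0.052), and was -0.71 without L2-cell replicate 2. The morula to blastocyst difference of 1.03 (adjusted p = 0.12) did not pass either. The columns of each of these pairs of stages did not overlap, but 2 columns against 2 give this little weight against the test. The rise at the L2-cell passed in every alternative run, at between 2.95 and 3.91, without L2-cell replicate 2 as well, whereas the smaller rise at the E2-cell was lost without zygote replicate 2 and without either E2-cell replicate.

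Column names carry a tag that may mark a batch. At the step from E2-cell to L2-cell tag and stage cannot be told apart, since either pair of columns has a tag of its own. Within tags, MII replicate 2 at 28.7 FPKM shared the tag of the L2-cell columns at 899 and 1744, and zygote replicate 1 at 66.8 shared that of the E2-cell columns at 99.3 and 135. The E2-cell and L2-cell columns thus lay above the earlier column of their own tag. The remaining pair with a common tag, MII replicate 1 at 68.8 and zygote replicate 2 at 30.7, lay within the spread of those stages.

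The lincRNA row of Rmrp held little: it was listed at 0 in both MII and both E2-cell columns, at or below 1.24 FPKM up to the L2-cell, at 0.307 and 0.351 in 8-cell embryos and at 1.54 and 1.04 in blastocysts. No step of the stage series passed for this row.

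Rpph1 began high and spanned only 5.69-fold. MII oocytes held 847 and 714 FPKM, zygotes 1202 and 822, the E2-cell 778 and 919, the L2-cell 887 and 2463, and 4-cell embryos 969 and 1030. The 8-cell stage held 2024 and 2530, the morula 1863 and 1710, and the blastocyst 4603 and 4279. Up to the 4-cell stage neighbouring stages overlapped, and the spread of the L2-cell came from replicate 2, which was 2463 against 887. Rpph1 rose by 1.2 (SE 0.38, adjusted p = 0.035) at the 8-cell stage and by 1.31 (SE 0.38, adjusted p = 0.018) at the blastocyst; each call was lost when any 1 column of its 4 was left out, with differences of 1.02 to 1.34 and 1.25 to 1.38. The E2-cell to L2-cell difference of 0.81 (adjusted p = 0.083) did not pass, and it was 0.0688 (adjusted p = 0.86) without L2-cell replicate 2 and 1.54 (adjusted p = 0.00051) without replicate 1.

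**Figure D1:**
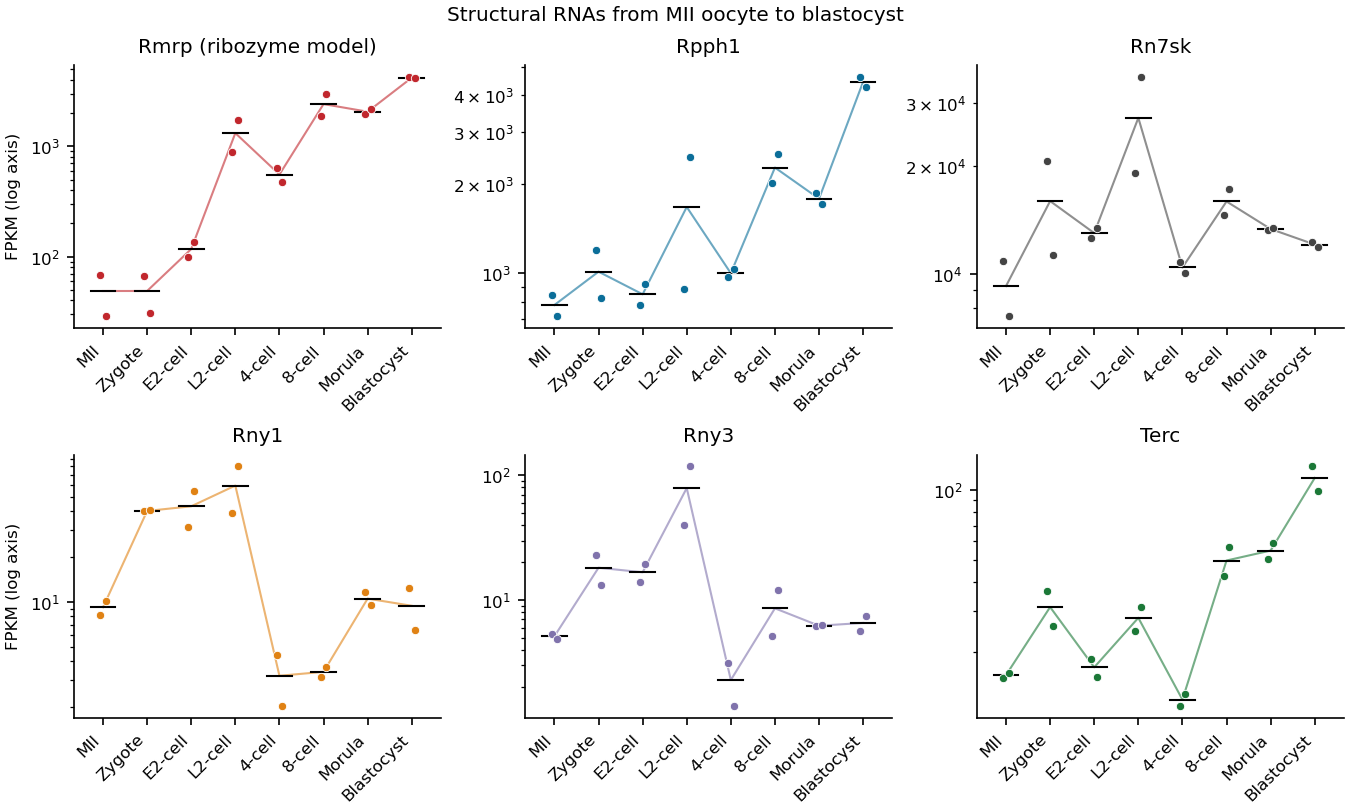
FPKM of 6 structural RNAs (log axis, each panel with its own range) in the 8 stages from MII oocyte to blastocyst; points are the 2 columns of a stage, black bars their mean, and lines join the means. Rmrp runs from a mean of 48.7 in MII oocytes to 4204 in blastocysts, while both Y RNAs peak in the L2-cell, at 59.5 and 79.1, and are lowest in 4-cell embryos, at 3.21 and 2.28.

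The ratio of these catalytic RNAs, both per kilobase in the same column, changed with stage. Rmrp was 8.12% and 4.01% of Rpph1 in MII oocytes, 5.55% and 3.74% in zygotes, 12.8% and 14.7% in the E2-cell, and 101% and 70.8% in the L2-cell. It was 65.5% and 46.3% in 4-cell embryos, 92.8% and 117% in 8-cell embryos, 105% and 127% in morulae, and 92.3% and 97.2% in blastocysts. Thus the 6 columns up to the E2-cell all lay below the 10 from the L2-cell on, with no overlap.

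**Figure D2:**
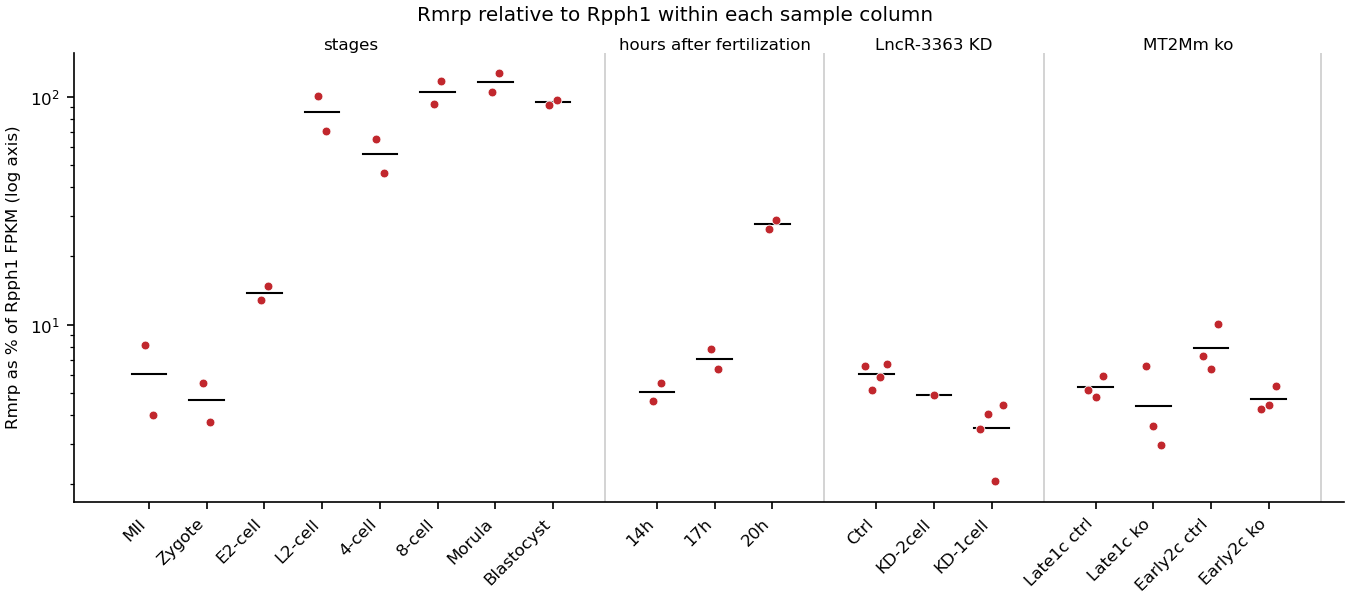
Rmrp (ribozyme row) as a percentage of Rpph1 FPKM in the same column (log axis), for every column of the table; points are columns and black bars group means. Values stay at or below 14.7% up to the E2-cell and reach 46.3% to 127% from the L2-cell on; they run from 4.62% to 28.9% over the 3 times after fertilization.

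The transcripts for proteins of RNase P and RNase MRP, 11 genes tested, followed their own course. From zygote to E2-cell 8 of 11 fell and 1 rose, with a median of -0.91 against -0.01 over all rows; Rpp38 fell by 2.55 (adjusted p = 1.1e-06) and Pop7 by 1.89 (adjusted p = 2.9e-06), while Rpp25 rose by 1.51 (adjusted p = 9.5e-06). From E2-cell to L2-cell 5 rose and 3 fell, with a median of 0.57 against -0.10. Without L2-cell replicate 2 the median of these genes was 0.84. Rpp25 rose from 1.12 ± 0.14 to 13.1 ± 0.53 FPKM (SD, n = 2), and Rpp25l, its paralog, fell by 2.39 (adjusted p = 5.1e-07). From L2-cell to 4-cell 5 rose and 1 fell, led by Pop4 at 1.92 (adjusted p = 2.2e-06). Over all rows 44.1%, 68.7% and 56.3% were called at these steps in turn.

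Rn7sk was the most abundant member in every column, at 57.6% to 93.8% of the summed FPKM of the 7 rows, and the steadiest over the stages, with 2.95-fold between the lowest and highest mean. It held 10860 and 7590 FPKM in MII oocytes, 20570 and 11300 in zygotes, 12530 and 13410 in the E2-cell, and 19080 and 35360 in the L2-cell. It held 10740 and 10050 in 4-cell embryos, 14550 and 17240 in 8-cell embryos, 13260 and 13370 in morulae, and 12240 and 11860 in blastocysts. The L2-cell columns lay above the E2-cell and the 4-cell columns. Rn7sk rose by 1.0 (SE 0.37, adjusted p = 0.033) into the L2-cell and fell by 1.32 (SE 0.37, adjusted p = 0.011) out of it, but without L2-cell replicate 2 the values were 0.56 and -0.88 and neither passed. The rise was lost without either E2-cell column as well, and with columns scaled by the median of ratios. The MII to zygote difference of 0.75 (adjusted p = 0.29) did not pass.

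Of 8 genes for proteins of the 7SK particle and P-TEFb, 3 rose and 1 fell from zygote to E2-cell. From E2-cell to L2-cell 3 rose and 3 fell. Over all rows 44.1% were called at the first step and 68.7% at the second, so these counts were near the share of all rows. Hexim1, which inhibits P-TEFb when bound to 7SK, was at 0.0170 ± 0.024 FPKM in zygotes and 5.55 ± 0.091 in the E2-cell (SD, n = 2; 3.55 on the log2 scale, adjusted p = 7.8e-09), and its paralog Hexim2 fell by 1.83 at that step (adjusted p = 0.004) and by 2.08 at the next (adjusted p = 0.0009). Of the kinase subunits, Cdk9 rose into the L2-cell from 2.42 ± 0.38 to 23.9 ± 0.35 FPKM (3.07, adjusted p = 3.8e-08). Ccnt1 rose from 3.09 ± 0.12 to 16 ± 0.38 FPKM (2.2, adjusted p = 1.3e-08). Ccnt2, a kinase subunit too, fell from 13.7 ± 0.97 to 9.82 ± 0.024 FPKM (-0.46, adjusted p = 0.0079, SD with n = 2 throughout). The call of Ccnt2 was lost with columns scaled to their protein-coding sum.

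The Y RNAs had the sharpest falls of the 6 RNAs over the stages, on leaving the L2-cell. Column names change from a tag to a processing word at that step, so stage and type of column cannot be told apart there. Rny1 held 8.20 and 10.2 FPKM in MII oocytes, 40.0 and 40.6 in zygotes, 31.5 and 55.2 in the E2-cell, and 39.2 and 79.8 in the L2-cell, then 4.39 and 2.03 in 4-cell embryos. It held 3.15 and 3.67 in 8-cell embryos, 11.5 and 9.46 in morulae, and 12.3 and 6.53 in blastocysts. So it was high from the zygote to the L2-cell and low on both sides of that window, with no overlap between the inner 6 columns and the other 10. Rny1 rose by 2.08 (SE 0.41, adjusted p = 0.025) from MII to zygote, fell by 4.01 (SE 0.41, adjusted p = 1.3e-05) from L2-cell to 4-cell, 18.6-fold between means, and rose by 1.49 (adjusted p = 0.025) into the morula. The fall passed in every alternative run, at -3.5 without L2-cell replicate 2; the rise into the zygote was lost without either MII column or zygote replicate 1, and that into the morula without any 1 of its 4 columns.

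Rny3 held 5.35 and 4.88 FPKM in MII oocytes, 23.2 and 13.1 in zygotes, 14 and 19.4 in the E2-cell, 40.3 and 118 in the L2-cell, and 3.14 and 1.42 in 4-cell embryos. It held 5.12 and 12.0 in 8-cell embryos, 6.17 and 6.26 in morulae, and 5.68 and 7.41 in blastocysts. Unlike Rny1, whose L2-cell and E2-cell columns overlapped, Rny3 lay higher in both L2-cell columns than in either E2-cell column. Rny3 rose by 2.03 (SE 0.51, adjusted p = 0.0043) into the L2-cell, fell by 4.72 (SE 0.51, adjusted p = 1.9e-05) into the 4-cell stage, 34.7-fold between means, and rose by 1.67 (adjusted p = 0.028) into the 8-cell stage. Without L2-cell replicate 2 the first of these was 1.26 and did not pass, and the fall was -3.95 and passed. The last did not pass without 4-cell replicate 4 or 8-cell replicate 2. The MII to zygote difference of 1.68 (adjusted p = 0.098) did not pass.

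The 4-cell fall, at the step where the column names change, was not limited to the Y RNAs. Of 11 other small structural RNAs tested, 10 fell and 1 rose from L2-cell to 4-cell, with a median of -2.52 against 0 over all rows; with columns scaled by the median of ratios or to their protein-coding sum 10 fell and 0 rose. Vaultrc5, the vault RNA, fell from 510 ± 189 to 3.10 ± 2.4 FPKM (SD, n = 2; -7.28, adjusted p = 2.3e-07), and Rnu12, an RNA of the minor spliceosome, from 330 ± 193 to 4.49 ± 1.7 (-5.96, adjusted p = 2.2e-05). Snord118, the U8 RNA, fell by 4.03 (adjusted p = 1.1e-05). Without L2-cell replicate 2, an alternative chosen after the data were seen for these lists, 8 of the 11 fell and 0 rose, and the differences were -6.89 for Vaultrc5, -5.32 for Rnu12 and -3.56 for Snord118, all 3 still called. Small RNAs as a class made up 64.6% and 73.4% of the FPKM sum in the L2-cell, which moved with these values; its part in them was not tested. Of 7 proteins that bind Y RNAs 5 rose and 0 fell at this step, led by Ncl, nucleolin, at 2.56 (adjusted p = 4.1e-06), and Trove2, which encodes Ro60, rose from 1.31 ± 0.16 to 3.25 ± 0.18 FPKM (1.06, adjusted p = 4.1e-05; SD, n = 2). Of those 5, the calls of Puf60 and Matr3 were lost under either scaling and without L2-cell replicate 2. Over all rows 30.2% were called higher and 26.2% lower at this step.

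Terc ended the series at its highest level. It held 15.6 and 16.3 FPKM in MII oocytes, 36.5 and 26.0 in zygotes, 18.7 and 15.7 in the E2-cell, 24.8 and 31.4 in the L2-cell, and 11.8 and 13.2 in 4-cell embryos. It held 42.3 and 56.8 in 8-cell embryos, 50.4 and 59.0 in morulae, and 126 and 98.7 in blastocysts. Of neighbouring stages only the 8-cell stage and the morula overlapped. Terc rose by 0.93 (SE 0.21, adjusted p = 0.038) into the zygote, fell by 0.83 (SE 0.21, adjusted p = 0.008) into the E2-cell, rose by 0.69 (adjusted p = 0.013) into the L2-cell and fell by 1.13 (adjusted p = 0.00086) into the 4-cell stage. It then rose by 1.93 (SE 0.21, adjusted p = 8.4e-05) into the 8-cell stage and by 1.02 (SE 0.21, adjusted p = 0.0023) into the blastocyst. The last 3 of these 6 passed in every alternative run, while single columns decided the first 3. The zygote rise was lost without either MII column or zygote replicate 1, the E2-cell fall without zygote replicate 1 or E2-cell replicate 2, and the L2-cell rise without replicate 2 of either stage or with columns scaled by the median of ratios.

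Tert, the catalytic protein of telomerase, was at 7.75 ± 1.2 FPKM in MII oocytes, 0.793 ± 0.12 in 4-cell embryos and 1.5 ± 0.30 in blastocysts (SD, n = 2). Of 9 genes for telomerase and the proteins that assemble and trim Terc, 6 rose and 2 fell from E2-cell to L2-cell, or 6 and 1 without L2-cell replicate 2, with a median of 1.41 against -0.10 over all rows. Wrap53, which brings telomerase to Cajal bodies, rose from 1.05 ± 0.13 to 9.12 ± 0.070 FPKM (2.63, adjusted p = 9.7e-09; SD, n = 2). Nhp2, of the complex that holds the end of Terc, rose by 2.72 (adjusted p = 8.1e-08). From morula to blastocyst, where Terc rose, 4 fell and none rose, among them Naf1 by 1.24 (adjusted p = 0.00022) and Gar1 by 0.91 (adjusted p = 0.0026). Of 7 shelterin genes, which coat telomeres, 1 rose and 4 fell into the L2-cell. Over all rows 31.1% were called higher and 37.6% lower into the L2-cell, and 22.4% and 16.3% into the blastocyst.

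Counted over all 7 rows, 2 rose and 0 fell from MII to zygote, where 3.76% of all rows were called (1.73% higher, 2.03% lower), and 1 rose and 1 fell into the E2-cell, where 44.1% were (17.9% higher, 26.2% lower). Into the L2-cell 4 rose and 0 fell, beside 68.7% of all rows called (31.1% higher, 37.6% lower). Into the 4-cell stage 0 rose and 4 fell, beside 56.3% (30.2% higher, 26.2% lower), and into the 8-cell stage 4 rose and 0 fell, beside 35% (13.4% higher, 21.6% lower). Into the morula 1 rose and 0 fell, beside 20.9% (8.39% higher, 12.5% lower), and into the blastocyst 2 rose and 0 fell, beside 38.7% (22.4% higher, 16.3% lower). Counted without direction, the members called were 1 to 4 of 7 at each step, which apart from the MII to zygote and 8-cell steps was near or below the share of all rows.

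Into the L2-cell, the step at which the most rows of any kind were called (31.1% higher and 37.6% lower), 11 of 13 Pol III subunit genes rose and 2 fell, or 9 and 1 without L2-cell replicate 2, with a median of 1.11 against -0.10 over all rows. Polr3e rose from 0.930 ± 0.19 to 25.2 ± 1.3 FPKM (4.17, adjusted p = 6.8e-10), and Polr3g, the subunit known from embryonic and stem cells, from 2.06 ± 0.10 to 26.9 ± 0.77 (3.42, adjusted p = 2.3e-09; SD, n = 2). Of 18 genes listed as Pol III initiation factors 13 rose and 1 fell, with a median of 1.53, or 1.585 without L2-cell replicate 2. This list holds Maf1, a repressor of Pol III, among the rises (1.37, adjusted p = 8.8e-05). Gtf3c4 and Gtf3c5, of TFIIIC, rose by 4.11 (adjusted p = 2.4e-10) and 3.72 (adjusted p = 2.4e-09). Snapc2, of the complex that reads the promoters of Rmrp, Rpph1, Rn7sk and the Y RNAs, rose by 3.79 (adjusted p = 7e-08). Of the same complex Snapc3, Snapc4 and Snapc5 rose too, while Snapc1 did not pass (-0.17, adjusted p = 0.74). Brf2, the TFIIIB subunit used at these promoters, did not pass either (0.33, adjusted p = 0.36). From L2-cell to 4-cell, where 4 members fell, 7 of the 13 subunits rose and 1 fell. Of the 18 factors 6 rose, Maf1 among them, and 0 fell. With columns scaled to their protein-coding sum these counts turned to 2 rises and 4 falls, and to 3 and 4, and by the median of ratios to 6 and 4, and 5 and 2. Without L2-cell replicate 2 they were 4 and 1, and 5 and 0. Into the 8-cell stage 0 of 18 factors rose and 7 fell. Over all rows 30.2% were called higher and 26.2% lower into the 4-cell stage, and 13.4% and 21.6% into the 8-cell stage.

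In the hours after fertilization, a series of its own with 12834 rows tested, Rmrp had the largest rise that passed the test, between 17 and 20 hours. It was 17.6 and 21.7 FPKM at 14 hours, 38.0 and 35.2 at 17 hours, and 183 and 213 at 20 hours, with no overlap between times. It rose by 0.89 (SE 0.12, adjusted p = 0.0028) and then by 2.42 (SE 0.12, adjusted p = 0.00048), 5.4-fold between means, and both steps passed in every alternative run. As a share of Rpph1 it went from 4.62% and 5.52% through 7.78% and 6.40% to 26.4% and 28.9%. The names of the columns at 17 hours carry another processing word than those at 14 and 20 hours, so at either single step time and that word cannot be told apart. The 14-hour and 20-hour columns carry the same word, and over that span Rmrp went from 17.6 and 21.7 to 183 and 213 FPKM.

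Rpph1 was 380 and 394, then 489 and 549, then 690 and 736 FPKM, and rose by 0.42 (SE 0.06, adjusted p = 0.0047) and 0.46 (SE 0.06, adjusted p = 0.0077), the second call lost without replicate 2 at 20 hours. Rn7sk was 5699 and 5972, then 6954 and 7675, then 8399 and 8656 FPKM; it rose by 0.32 (adjusted p = 0.013) at the first step, a call lost without replicate 1 at 14 hours, and the second, 0.22, did not pass (adjusted p = 0.067). These steady gains did not overlap between times either. Rny3 went up and down again, from 1.27 and 2.36 through 6.64 and 9.92 to 2.58 and 3.88 FPKM, with a rise of 1.94 (SE 0.30, adjusted p = 0.0046) and a fall of 1.23 (SE 0.30, adjusted p = 0.036); the fall was lost without any 1 of its 4 columns. Rny1 was listed at 0 and 3.20, then at 5.85 and 10.2, then at 7.88 and 6.95 FPKM, and its first difference of 2.60 (adjusted p = 0.056) did not pass. Terc took the opposite turn to Rny3, from 10.7 and 12.4 through 8.76 and 6.78 to 14.9 and 14.9 FPKM, a fall of 0.55 (SE 0.12, adjusted p = 0.016) and a rise of 0.91 (SE 0.12, adjusted p = 0.0069). That fall was lost without replicate 2 at 14 or at 17 hours. The lincRNA row of Rmrp was listed at 0 at all times and was not tested.

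**Figure D3:**
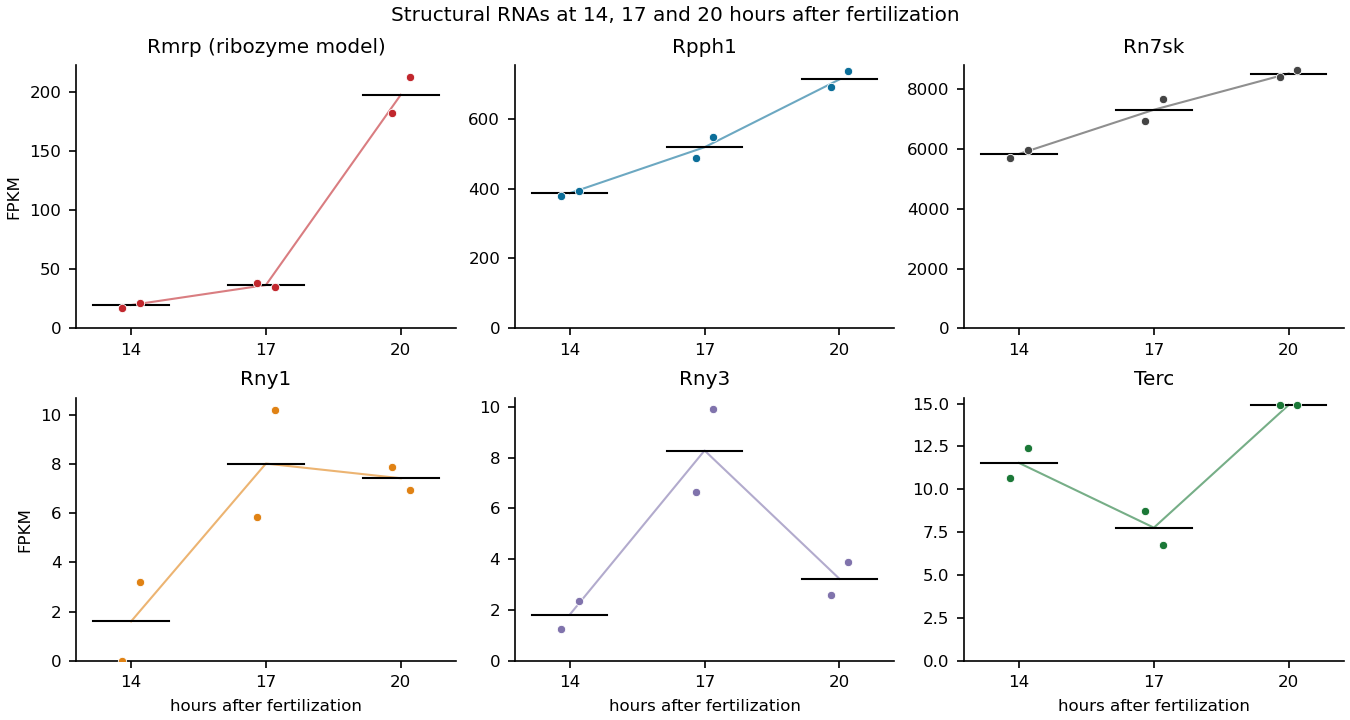
FPKM of the 6 RNAs at 14, 17 and 20 hours after fertilization, each panel with its own axis from 0; points are the 2 columns of a time, black bars their mean, and lines join the means. Rmrp stays at or below 38.0 up to 17 hours and reaches 183 and 213 at 20 hours; Rny3 is highest and Terc lowest at 17 hours.

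From 14 to 17 hours 4 of the 6 member rows tested rose and 1 fell, where 37% of all rows were called (20.5% higher, 16.5% lower). From 17 to 20 hours 3 rose and 1 fell, where 19.6% were called (5.13% higher, 14.5% lower). Of 9 other small structural RNAs 3 rose and 0 fell at the first step, Vaultrc5 from 23.8 ± 5.7 to 52.9 ± 6.6 FPKM (1.15, adjusted p = 0.0034) and Snord118 from 2.32 ± 0.27 to 4.96 ± 0.94 (0.94, adjusted p = 0.0034; SD, n = 2). At the second step 4 rose and 2 fell. Of 13 Pol III subunits 3 rose and 0 fell, then 0 rose and 2 fell; with columns scaled by the median of ratios 2 rose at the first step, and neither fall passed at the second. Maf1, the repressor of Pol III, was 0.681 ± 0.057 FPKM at 17 hours and 1.36 ± 0.035 at 20 hours, a rise of 0.66 (adjusted p = 0.016; SD, n = 2). The RNase P and MRP proteins, 9 tested, gave 1 rise and 2 falls, then 0 rises and 3 falls, or 0 and 2, then 0 and 1, scaled by the median of ratios.

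After knockdown of LncR-3363 both rows of Rmrp were lower. Their models share all but 5 bases at either end, so the rows are not separate measurements. The ribozyme row held 29.3, 27.2, 24.8 and 37.9 FPKM in the Ctrl columns and 9.01, 12.0, 13.2 and 19.2 in KD-1cell, with no overlap, and 22.0 in the single KD-2cell column, below every Ctrl column. It fell by 1.16 (SE 0.21, adjusted p = 0.0016; 2.23-fold between means), in a limma fit of the 8 Ctrl and KD-1cell columns over 11492 rows. The lincRNA row held 3.59, 5.80, 9.19 and 11.0 FPKM in Ctrl and 1.36, 2.58, 0 and 0 in KD-1cell, and fell by 2.74 (SE 0.60, adjusted p = 0.0051); KD-2cell held 5.85. Both calls passed in every alternative run. Rmrp as a share of Rpph1 was 6.59%, 5.14%, 5.90% and 6.70% in Ctrl and 3.46%, 4.06%, 2.05% and 4.42% in KD-1cell, again with no overlap. The mean log2 of this ratio, a measure chosen after the values were seen and so given with no test, differed by -0.85.

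Rpph1 itself held 444, 530, 421 and 566 FPKM in Ctrl and 260, 296, 643 and 435 in KD-1cell. Its difference of -0.35 (95% interval -0.91 to 0.22, adjusted p = 0.29) did not pass, and KD-1cell replicate 3 lay above all Ctrl columns while replicates 1 and 2 lay below. Rn7sk showed the same spread, with 5022, 5085, 4313 and 5361 FPKM in Ctrl and 3158, 3215, 6829 and 5536 in KD-1cell, and so did Rny3, with 25.6, 25.7, 16.3 and 23.6 in Ctrl and 9.18, 13.8, 28.9 and 40.6 in KD-1cell; neither passed. For these 3 RNAs replicates 1 and 2 of KD-1cell were low and replicates 3 and 4 higher, whereas Rmrp was below Ctrl in all 4.

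Rny1 went the other way. It held 7.19, 7.76, 6.53 and 4.77 FPKM in Ctrl, 8.97, 7.83, 13.5 and 10.8 in KD-1cell, and 11.3 in KD-2cell, all knockdown columns above all Ctrl columns, and rose by 0.60 (SE 0.18, adjusted p = 0.024). The call was lost when columns were scaled by the median of ratios and without Ctrl replicate 3 or 4 or KD-1cell replicate 3 or 4. Terc held 2.06, 1.70, 2.90 and 3.0 FPKM in Ctrl, 0.536, 2.28, 1.24 and 0.788 in KD-1cell, and 3.34 in KD-2cell. Its fall of 0.84 (SE 0.30, adjusted p = 0.043) was lost in 9 alternatives, among them without Ctrl replicate 1, 3 or 4 and without KD-1cell replicate 1, 3 or 4. In all 1 of 7 rows rose and 3 fell, both rows of Rmrp among the latter, where 43.7% of all rows were called, 29.8% higher and 13.9% lower.

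The markers of the oocyte summed to 544 to 608 FPKM in Ctrl and to 681 to 890 in KD-1cell, and small RNAs made up 51.0% to 56.5% and 45.1% to 50.0% of the FPKM sum. These moved with the values above, and their part in them was not tested. The 2-cell markers summed to 125 to 155 FPKM in Ctrl and 135 to 165 in KD-1cell, ranges that overlapped. Of 9 other small structural RNAs 0 rose and 3 fell, Snord118 from 18 ± 2.0 to 10.5 ± 4.0 FPKM (-0.82, adjusted p = 0.019) and Vaultrc5 from 672 ± 36 to 518 ± 78 (-0.39, adjusted p = 0.015; SD, n = 4). Of 10 RNase P and MRP proteins 4 rose and 0 fell, Rpp38 by 0.88 (adjusted p = 0.0056). Among the 4, the call of Pop5 was lost with columns scaled by the median of ratios and to their protein-coding sum. The La protein gene Ssb rose from 130 ± 9.4 to 423 ± 53 FPKM (1.70, adjusted p = 1.4e-06, SD with n = 4). It was among 5 of 6 Y RNA binding proteins that rose, with 0 lower. With columns scaled by the median of ratios or to their protein-coding sum 1 was lower. The call of Puf60, among the 5, was lost under the median of ratios (0.37, adjusted p = 0.083).

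Of 12 Pol III subunit genes 6 rose and 1 fell, a count that became 2 and 2 with columns scaled by the median of ratios. Of 14 initiation factor genes 5 rose and 3 fell. Among those 5, the call of Tbp was lost under that scaling and with columns scaled to their protein-coding sum. Brf2, the TFIIIB subunit used at the promoter type of Rmrp, Rpph1, Rn7sk and the Y RNAs, fell from 8.46 ± 0.78 to 1.78 ± 0.30 FPKM (-1.98, adjusted p = 2.3e-06), and Gtf3c1 from 12.3 ± 0.76 to 5.98 ± 0.62 (-0.98, adjusted p = 3e-05; SD, n = 4). Of 8 telomerase genes 3 rose and 1 fell; Tent4b, which adds tails to the end of Terc, fell from 24.9 ± 1.5 to 6.92 ± 0.34 FPKM (-1.77, adjusted p = 1.4e-07), and Tert rose from 5.6 ± 0.39 to 8.96 ± 0.16 (0.63, adjusted p = 0.00013; SD, n = 4). Of 8 genes of the 7SK particle and P-TEFb 5 rose and 1 fell, or 4 and 3 scaled by the median of ratios. Over all rows of the knockdown 29.8% were called higher and 13.9% lower.

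At Late1c, ko and ctrl columns of every member overlapped, and 0 of 7 rows were called by limma or had an unadjusted p under 0.05, where 0.114% of the 13180 rows tested were called (0.0455% higher, 0.0683% lower). Rmrp held 9.51, 10.6 and 9.53 FPKM in ctrl and 12.2, 7.46 and 5.79 in ko, a difference of -0.27 (95% interval -0.75 to 0.21, adjusted p = 0.8). Rpph1 held 184, 221 and 161 in ctrl and 185, 209 and 195 in ko, with a 95% interval of the difference from -0.21 to 0.34. Rn7sk held 2418, 2489 and 2302 in ctrl and 2251, 2504 and 2025 in ko, with an interval from -0.35 to 0.16. A p above the threshold does not show that the groups were alike, and changes within these intervals are not excluded. The intervals were -0.53 to 0.49 for Rny1, -0.74 to 0.35 for Rny3 and -0.92 to 0.33 for Terc. The lincRNA row of Rmrp had the largest difference of the 7, 0.47 (95% interval -0.11 to 1.04, adjusted p = 0.68), with 1.05, 1.31 and 1.19 FPKM in ctrl and 2.63, 1.94 and 1.15 in ko.

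At Early2c the ko columns were lower for most members. Rmrp held 53.0, 36.6 and 57.9 FPKM in ctrl and 15.5, 16.8 and 16.7 in ko, and fell by 1.54 (SE 0.22, adjusted p = 0.00014; 3.01-fold between means). Rpph1 held 731, 573 and 574 in ctrl and 364, 378 and 311 in ko, and fell by 0.83 (SE 0.13, adjusted p = 0.00022; 1.78-fold). Rn7sk held 5787, 4853 and 6108 in ctrl and 4174, 4493 and 3565 in ko, and fell by 0.45 (SE 0.12, adjusted p = 0.0075; 1.37-fold). None of these 3 overlapped, and all 3 calls passed in every alternative run.

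The Y RNAs were lower too. Rny3 held 48.4, 43.3 and 50.0 FPKM in ctrl and 28.8, 31.7 and 22.6 in ko, and fell by 0.77 (SE 0.25, adjusted p = 0.023), a call lost without ctrl replicate 1 or 3 or ko replicate 3. Rny1 held 9.64, 12.3 and 14.4 in ctrl and 9.20, 6.45 and 8.09 in ko; the columns did not overlap, but the difference of -0.58 (adjusted p = 0.058) did not pass. Terc, at 3.02, 3.87 and 2.29 FPKM in ctrl and 2.74, 1.74 and 2.05 in ko, overlapped and did not pass (-0.40, adjusted p = 0.27). The lincRNA row of Rmrp held 4.54, 7.69 and 9.03 in ctrl and 4.12, 2.85 and 4.63 in ko and fell by 0.77 (adjusted p = 0.03), a call lost in 6 alternatives, among them without ctrl replicate 2 or 3 or ko replicate 1 or 2. In all 0 of 7 rows rose and 5 fell, both rows of Rmrp among the latter, where 49% of all rows were called, 33.4% higher and 15.6% lower.

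**Figure D4:**
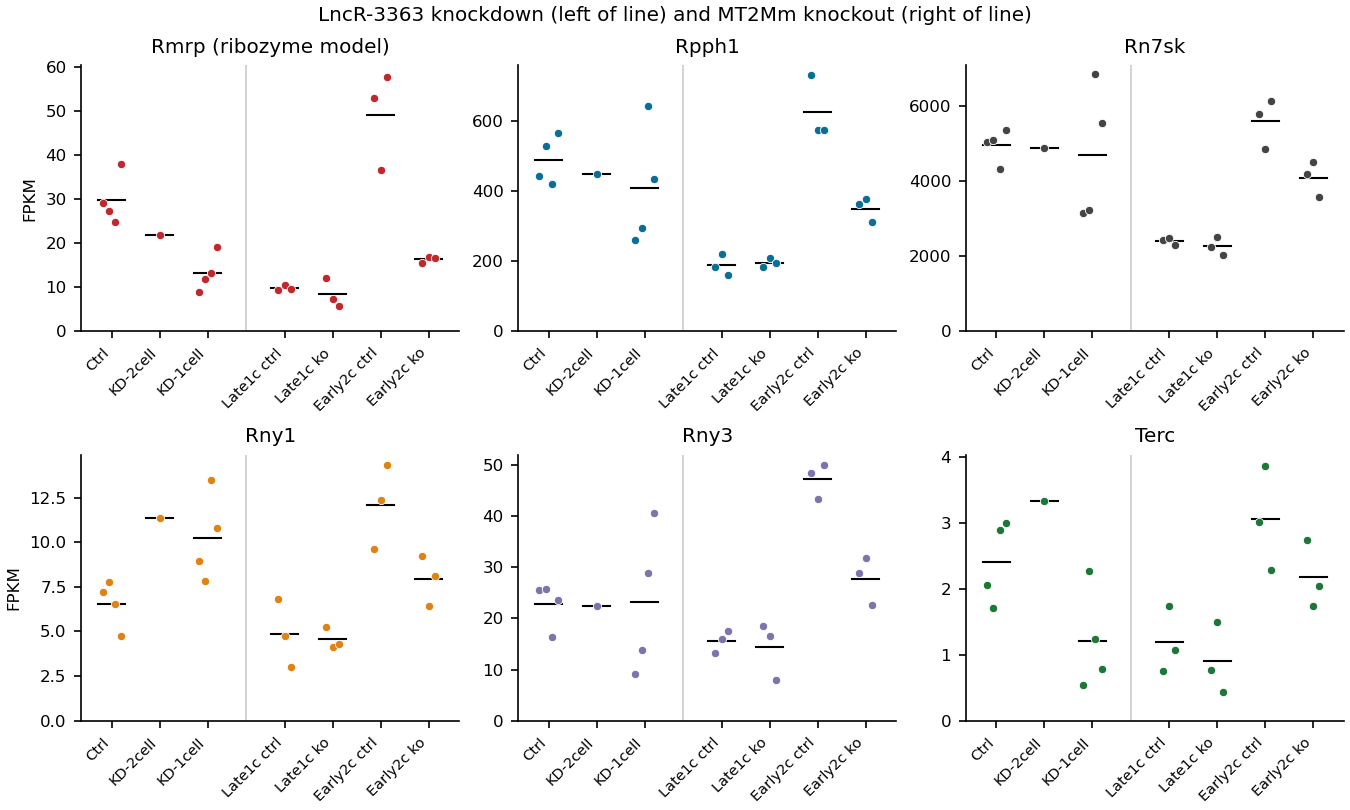
FPKM of the 6 RNAs in the LncR-3363 groups (left of the line) and the MT2Mm groups (right), each panel with its own axis from 0; points are columns and black bars group means. At Early2c all ko columns of Rmrp, Rpph1, Rn7sk, Rny1 and Rny3 lie below all ctrl columns, and in the knockdown all 4 KD-1cell columns of Rmrp lie below all 4 Ctrl columns.

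The effect of the knockout at Early2c was compared with that at Late1c as an interaction in the same fit, where 37.3% of all rows were called (25.7% higher, 11.6% lower). It was lower at Early2c by 1.26 on the log2 scale for Rmrp (-1.26, SE 0.31, adjusted p = 0.0077), by 1.24 for its lincRNA row (-1.24, adjusted p = 0.022) and by 0.90 for Rpph1 (-0.90, SE 0.18, adjusted p = 0.0022). The calls of Rmrp and Rpph1 passed in every alternative run, and that of the lincRNA row was lost without Early2c ctrl replicate 2 or 3, Early2c ko replicate 2 or Late1c ko replicate 1. The differences of Rn7sk (-0.36, adjusted p = 0.11), Rny1 (-0.56, adjusted p = 0.21) and Rny3 (-0.57, adjusted p = 0.23) did not pass, so the knockout effect on them was not shown to differ between the times. Rmrp as a share of Rpph1 was 7.25%, 6.39% and 10.1% in Early2c ctrl and 4.25%, 4.45% and 5.38% in ko, with no overlap and a mean log2 difference of -0.73. At Late1c the shares overlapped, with 5.16%, 4.8% and 5.93% in ctrl and 6.57%, 3.57% and 2.97% in ko, a mean log2 difference of -0.36.

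In control embryos all 7 rows rose from Late1c to Early2c, where 79.2% of all rows were called, 33.5% higher and 45.7% lower. Rmrp rose by 2.23 (SE 0.22, adjusted p = 1.4e-06; 4.97-fold between means), Rpph1 by 1.73 (SE 0.13, adjusted p = 9.4e-08; 3.32-fold) and Rny3 by 1.57 (SE 0.25, adjusted p = 9.7e-05). Rn7sk rose by 1.21 (adjusted p = 1.3e-06), Rny1 by 1.28 (adjusted p = 3e-04) and Terc by 1.1 (adjusted p = 0.0039), and no member overlapped between the times. All 7 passed in every alternative run. This step and the Early2c knockout comparison share their Early2c ctrl columns.

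**Figure D5:**
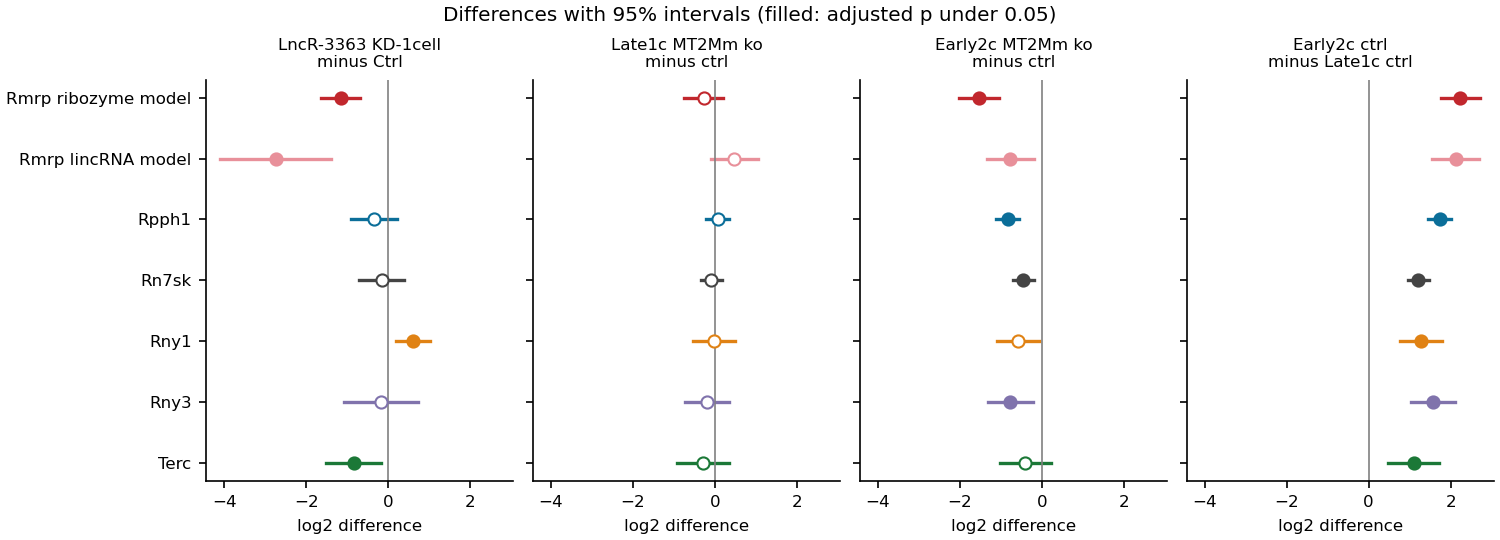
Differences of the 7 member rows on the log2(FPKM + 0.5) scale, with 95% intervals, in the knockdown, the knockout at both times, and the step from Late1c to Early2c in controls; filled points passed at an adjusted p under 0.05. At Late1c no member passed, at Early2c 5 of 7 lie below 0 and passed, and in the control step all 7 lie above 0 and passed.

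Genes for proteins that work with these RNAs are read here against all rows of the Early2c ko, of which 33.4% were called higher and 15.6% lower, and where scaling by the median of ratios turned 4402 higher and 2056 lower into 3037 and 3539. Of 10 RNase P and MRP proteins 7 rose and 0 fell, or 5 and 0 under that scaling, with a median of 0.62 against 0.11 over all rows, and Pop1, a protein common to both enzymes, rose from 2.55 ± 0.22 to 6.48 ± 0.40 FPKM (1.20, adjusted p = 2.1e-07; SD, n = 3). Of 6 Y RNA binding proteins 5 rose and 0 fell, the same counts under that scaling, Ssb from 68.5 ± 4.4 to 153 ± 12 FPKM (1.15, adjusted p = 3e-07; SD, n = 3). Of 9 telomerase genes 4 rose and 0 fell under either, Dkc1, the pseudouridine synthase bound to Terc, by 0.82 (adjusted p = 3.6e-07) and Tert by 0.70 (adjusted p = 7.7e-05). Of 6 shelterin genes 3 rose and 0 fell, Terf1 from 5.13 ± 0.66 to 20.3 ± 2.6 FPKM (1.88, adjusted p = 1.3e-07; SD, n = 3), a count that became 1 and 1 with columns scaled by the median of ratios and 3 and 1 scaled to their protein-coding sum.

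Of 13 Pol III subunit genes 8 rose and 0 fell in the Early2c ko, or 5 and 0 scaled by the median of ratios, Polr1d by 0.90 (adjusted p = 2.6e-06) and Polr3a by 0.88 (adjusted p = 7.7e-06). Of 17 initiation factor genes 9 rose and 1 fell, or 8 and 3 scaled by the median of ratios: Brf2 rose from 3.43 ± 0.29 to 9.47 ± 0.36 FPKM (1.35, adjusted p = 4.7e-08; SD, n = 3), and Snapc3 fell by 0.85 (adjusted p = 0.00016). Among proteins of 7SK, Hexim2 rose by 0.75 (adjusted p = 0.00021) and Hexim1 fell by 0.29 (adjusted p = 0.026), among 3 that rose and 1 that fell of 8, or 1 and 1 with either scaling. In Late1c ctrl Pop1 was at 17.9 ± 1.0 FPKM and Brf2 at 21.2 ± 0.78 (SD, n = 3). Of 9 other small structural RNAs 0 rose and 4 fell, Vaultrc5 from 882 ± 113 to 616 ± 19 FPKM (-0.51, adjusted p = 0.0086) and Rn7s6 by 0.49 (adjusted p = 0.016).

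Small RNAs made up 61.1% to 63.3% of the FPKM sum in Early2c ctrl and 56.3% to 57.5% in ko, the 2-cell markers summed to 229 to 240 and 177 to 190 FPKM, and the oocyte markers to 517 to 583 and 561 to 638. These moved with the members, and their part in the result was not tested. With each column scaled to its protein-coding sum, Rmrp was 53.0 ± 12 in Early2c ctrl and 17 ± 0.93 in ko (SD, n = 3).

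Members differed in how their stage courses resembled each other. Pearson's r over the 8 stage means of log2(FPKM + 0.5), a description only, was 0.927 between Rpph1 and Terc, 0.862 between Rmrp and Rpph1, 0.862 between Rny1 and Rny3, 0.871 between Rn7sk and Rny3 and -0.381 between Rmrp and Rny1. All points of these values share the libraries. Among 10898 rows searched, those nearest to Rmrp included the RNA helicase gene Ddx39 (r = 0.988) and Renbp (0.986), and those nearest to Rpph1 were Praf2 (0.957), Atp6v1a (0.957) and Pmvk (0.952). The rows nearest to the Y RNAs were small RNAs, for Rny1 a predicted small nucleolar RNA, Gm22362 (0.985), and the small nuclear RNAs Gm23143 (0.983) and Gm24871 (0.974), and for Rny3 the small nuclear RNA Gm24305 (0.977), Snord15a (0.967) and Gm24830 (0.965). Rn7sk was nearest to Snora23 (0.934), Cdip1 (0.922) and Gm26315 (0.909), Terc to Mir7005 (0.941), Perp (0.911) and Gm8116 (0.907), and the lincRNA row of Rmrp to Lncenc1 (0.965), Arpc5 (0.949) and Zc3hav1 (0.949).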

How the data were processed

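The deposited values are FPKM as the authors computed them. The submitters' processing notes name GRCm38, HISAT2 2.1.0, StringTie 1.3.4d, Cufflinks, Cuffdiff 2.2.1 and cutadapt 1.18; role, order, filters and the FPKM denominator are not given in the sources used here, nor is it said which samples had the TruSeq Stranded kit and which the SMARTer Stranded v2 kit that the labels list. Column names gave the groups. The knockdown columns bear a short name other than LncR-3363, and the link between these names is inferred from how the series is built. Groups with 4 samples and 2 columns hold samples that the names do not identify.

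The test was limma 3.58.1 (eBayes with trend, R 4.3.3) on log2(FPKM + 0.5), over rows that reached 1 FPKM in as many columns as the smallest group had. A row was called when its Benjamini-Hochberg adjusted p, over all rows of the fit, was under 0.05. A fold change on this scale understates changes of low rows. The 8 stages, 3 times and 4 MT2Mm groups each shared a fit. KD-2cell entered no test. Transcripts came from GENCODE M21. Other tools were pandas 2.3.3, SciPy 1.17.1, NumPy 2.4.6 and Matplotlib 3.10.9 under Python 3.11.15.

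The members and gene lists were chosen with earlier results of these data known. Named in the text are all member rows, a choice of up to 4 genes per partner list and comparison (called ones first, by size), and for each member the 3 rows with at least 5 FPKM in a stage whose stage course had the highest Pearson r. On simulated data, limma recovered 52% of changes of 1 and 91% of changes of 2 on the log2 scale from E2-cell to L2-cell over 19692 rows. In the knockdown it recovered 91.3% and 98.8% over 11492 rows. Over the comparisons simulated 2.58% to 6.76% of calls were false. The simulation changed only a small share of rows, with independent normal noise, whereas 68.7% and 43.7% of real rows were called. These rates need not hold for the real data. The alternatives were pseudocounts of 1 and 0.1 FPKM, leaving out the filter, scaling columns by the median of ratios or to the protein-coding sum, the replicate number as a block, each column left out, fits of a contrast's groups alone, columns of a shared tag, KD-2cell as an added group, and, chosen after the data were seen, both Rmrp rows summed and, for the gene lists at the L2-cell, its replicate 2 left out. Of the rows with the stage course most like that of Rmrp, 1 is not reported here.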

Additional observations from a re-analysis of the deposited data

Results flagged for a closer look

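The effect of the MT2Mm knockout differed between Early2c and Late1c, tested as an interaction, for 3 rows. The difference was -1.26 on the log2 scale for the ribozyme row of Rmrp, -1.24 for its lincRNA row and -0.90 for Rpph1. In the knockdown, the single KD-2cell column, which entered no test, held 11.34 FPKM of Rny1 and 3.34 FPKM of Terc, each above all 4 Ctrl columns, which held at most 7.76 and 3.0. No sample was far from the others of its group in the 14 group and member pairs large enough to check, those of Ctrl and KD-1cell. With 4 columns each such a check has little power, and groups of 2 or 3 columns, the L2-cell among them, were not checked.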

How the results depend on the processing

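Of 47 member differences that passed, 25 passed under every alternative run and 0 changed sign; of 49 that did not, 18 passed and 23 changed sign under some alternative. Counts of members that passed moved as follows. With no filter on low rows they were 1 from MII to zygote, 1 into the E2-cell, 2 into the 8-cell stage, 0 into the morula, 1 into the blastocyst, 3 from 14 to 17 hours, 2 in the knockdown and 3 in the Early2c knockout. With columns scaled by the median of ratios they were 2 into the L2-cell and 1 into the blastocyst. With the contrast's groups alone they were 0 into the zygote, 0 into the E2-cell and 5 into the blastocyst, and with columns of a shared tag 0 and 1 for the first 2 steps. With each column left out in turn they ran from 0 to 4 into the zygote, 0 to 1 into the E2-cell, 1 to 6 into the L2-cell, 3 to 7 into the 4-cell stage, 1 to 3 into the 8-cell stage, 0 to 0 into the morula, 1 to 1 into the blastocyst, 2 to 4 from 17 to 20 hours, 2 to 4 in the knockdown and 3 to 5 in the Early2c knockout. L2-cell replicate 2 gave the 1 (of 4) into the L2-cell when left out, and replicate 1 the 6 there and the 7 into the 4-cell stage. The cause was not tested, beyond fewer columns in a fit.

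With the replicate number as a block the counts were 1 into the zygote, 1 into the E2-cell, 3 into the L2-cell, 1 into the morula, 2 into the blastocyst, 6 and 5 at the 2 time steps, 3 in the knockdown, 0 at Late1c, 4 at Early2c, 3 for the interaction and 7 in the control step. The block could not be fitted for the steps with 4-cell embryos, whose columns carry the numbers 3 and 4. Residuals of equally numbered columns correlated at -0.0889 to 0.0891 in the stage series and 0.0198 to 0.0761 in the knockdown. Over the MT2Mm groups they correlated at -0.138 to 0.153. With so few columns per group, these values cannot show whether equal numbers pair columns. Scaling by the median of ratios moved the median of all rows by -0.14 in the Early2c knockout and by -0.13 in the knockdown, and turned the calls over all rows there from 4402 higher and 2056 lower to 3037 and 3539, and from 3420 and 1598 to 2284 and 2412. Read depth is unknown, so no counting error can be given; the Y RNAs and Terc, often below 10 FPKM, are the least certain.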

Other observations

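Groups of like stage from different experiments held different levels, and because these experiments differ in strain, handling and possibly kit, no comparison was made. Terc was 18.7 and 15.7 FPKM in the E2-cell of the stage series and 3.02, 3.87 and 2.29 in Early2c ctrl, while Rny3 was 14 and 19.4 in the E2-cell and 48.4, 43.3 and 50.0 in Early2c ctrl. Rny1 as a share of Rny3 ran from 30.5% to 309% over the columns of the stage series, from 19.9% to 28.7% in Early2c ctrl and from 20.2% to 40.0% in Ctrl. Scarna13, an RNA that guides modification of small nuclear RNAs, was at 0.269 ± 0.38 FPKM in zygotes, 287 ± 61 in the E2-cell and 134 ± 10 at 17 hours (SD, n = 2), and was listed at 0 in both columns at 20 hours.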
